A study of Mus musculus with 6 samples.

Results

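H3K4me3 regions were examined at 10 genes that mark endothelial cells, the lining of blood and lymph vessels, in chromatin from CD8+ tumour-infiltrating lymphocytes. The genes were Tie1, Tek, Kdr, Flt1, Flt4, Pecam1, Cdh5, Eng, Esam and Robo4, out of 21883 protein-coding genes in the gene table. The regions of each gene were those that overlapped the gene body plus 5 kb either side on the GRCm38 build. This gave 37 of 46565 regions in the Atg5 knockout list and 37 of 48546 in the wild-type list. Both groups were C57BL/6 mice bearing E0771 tumours, a mouse mammary tumour line. The knockout (KO) carried a Cre-mediated deletion of Atg5, a gene needed to form autophagosomes, and the other group was wild type (WT). The labels used here state neither the driver of Cre, nor the age or number of the mice, nor whether animals were pooled. H3K4me3, a histone mark of active and poised gene starts, was profiled by native chromatin immunoprecipitation after digestion with micrococcal nuclease. Each genotype had 1 library, so no difference below has a replicate check and no p-value is given. Of the 6 samples in the series, those for H3K27me3 and input were not used here.

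Endothelial cells are built around a few receptor systems. VEGF ligands signal through the receptor tyrosine kinases encoded by Kdr, Flt1 and Flt4, and angiopoietins signal through the receptor encoded by Tek, with Tie1 as its partner. Cdh5, Pecam1 and Esam encode proteins of the junctions between the cells, Eng a co-receptor for ligands of the TGF-beta family, and Robo4 an endothelial member of the roundabout receptors. Some of these genes are used outside the vessel wall: Pecam1 is also expressed by leukocytes and platelets, and Eng by some stromal and myeloid cells.

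Of the 10 genes, 9 had a region in the KO list and 9 in the WT list, against 72.3% and 72.8% of all protein-coding genes in the KO and WT lists. The 10 windows ran from 20231 bp at Esam to 174835 bp at Flt1. A longer window can hold more regions, and comparisons of gene windows with all protein-coding genes were not matched for length. The KO list covered less of 8 of the 10 genes, more of 1 (Pecam1) and the same of 1 (Tek, with 0 bp in both). Of the 8, Kdr, Eng and Esam differed by only −34, −75 and −9 bp. The count of shorter genes was 6 with no flank and 6 with a flank of 10 kb. Over all protein-coding genes with coverage in at least 1 list, 53.2% had the shorter covered length in KO and 46.7% the longer. The median difference over the 10 genes, knockout minus wild type, was −190 bp, beside −50 bp over the 16411 genes with coverage. The sets are not alike, as the 10 count Tek at 0 bp and the 16411 leave out genes without coverage. Summed over the 10 windows, regions covered 35078 bp in KO and 42473 bp in WT, a ratio of 0.826. Leaving out 1 gene at a time, the ratio lay between 0.624 without Pecam1 and 0.941 without Cdh5, the genes with the largest difference in each direction. Of the 9 genes with at least 500 bp in 1 list, 4 differed by at least 1.5-fold, all shorter in KO: Cdh5, Tie1, Flt1 and Robo4. Among all protein-coding genes with at least 500 bp in 1 list, 11.2% were shorter by that fold in KO and 14.2% were longer. With 20000 regions of highest −log10 q kept in each list, 4 genes were shorter in KO, 1 of them by that fold, and the median difference was 0 bp. In bulk chromatin, fewer cells of a type and less of the mark per cell cannot be told apart.

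The libraries also differed at the genes of the labelled cell type. All 12 T cell marker genes examined had regions in the knockout list and a longer covered length there, by at least 1.5-fold in each case. Over all protein-coding genes with at least 500 bp in 1 list, 14.2% were longer by that fold. The summed covered length of the 12 T cell genes was 174314 bp in KO and 22304 bp in WT. The windows of Cd3d and Cd3g overlap, so any bp covered in the stretch they share count for both genes in these sums. Single genes covered between 5228 and 47528 bp in KO and between 0 and 7170 bp in WT. Cd8a, Cd3e and Thy1 had 0 bp in WT, so some defining markers of CD8+ T cells were not covered in that list. Of the 12 genes, 9 had a region in WT, among them Cd8b1 with 705 bp and Cd3d with 2572 bp. Over all protein-coding genes, 72.3% had a region in KO and 72.8% in WT, so the wild-type count is near the general share. Housekeeping genes had regions at 10 of 10 genes in both lists, with sums of 66310 bp in KO and 60962 bp in WT. The part of these differences between the libraries in the endothelial values was not tested.

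The 5′ ends were placed with the RefSeq promoter table of GRCm38.p6, which has 7 of the 10 genes, 1 entry each. Cdh5, Pecam1 and Esam have no entry. Of the 7 genes, 4 had a region within 1 kb of the 5′ end in KO (Kdr, Flt1, Flt4 and Eng), and the same 4 had one in WT. Over 21262 promoter entries of protein-coding genes the shares were 62.0% in KO and 60.2% in WT. The promoters printed here, from 250 bases before to 50 bases after the 5′ end, are 2 under regions in both lists (Kdr and Eng), 1 under a region in the knockout only (Flt1) and 2 under none (Tie1 and Tek). CpG dinucleotides, the sites that the H3K4 methylation machinery favours when unmethylated, are in capitals. Kdr lies at chr5:75978406-75978705 on the minus strand, Eng at chr2:32646345-32646644 on the plus strand and Flt1 at chr5:147725962-147726261 on the minus strand. Tie1 lies at chr4:118489800-118490099 on the minus strand and Tek at chr4:94739039-94739338 on the plus strand.
Kdr: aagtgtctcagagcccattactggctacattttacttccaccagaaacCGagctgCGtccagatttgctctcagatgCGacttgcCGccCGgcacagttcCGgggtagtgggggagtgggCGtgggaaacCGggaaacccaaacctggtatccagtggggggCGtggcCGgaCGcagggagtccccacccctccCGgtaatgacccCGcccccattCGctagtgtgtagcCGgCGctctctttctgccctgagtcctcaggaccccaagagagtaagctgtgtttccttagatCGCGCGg
Eng: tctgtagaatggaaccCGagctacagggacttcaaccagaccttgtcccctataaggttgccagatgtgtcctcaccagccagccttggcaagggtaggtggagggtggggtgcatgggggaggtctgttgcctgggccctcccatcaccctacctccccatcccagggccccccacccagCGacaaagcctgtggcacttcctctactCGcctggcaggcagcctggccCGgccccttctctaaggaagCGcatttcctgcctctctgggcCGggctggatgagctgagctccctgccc
Flt1: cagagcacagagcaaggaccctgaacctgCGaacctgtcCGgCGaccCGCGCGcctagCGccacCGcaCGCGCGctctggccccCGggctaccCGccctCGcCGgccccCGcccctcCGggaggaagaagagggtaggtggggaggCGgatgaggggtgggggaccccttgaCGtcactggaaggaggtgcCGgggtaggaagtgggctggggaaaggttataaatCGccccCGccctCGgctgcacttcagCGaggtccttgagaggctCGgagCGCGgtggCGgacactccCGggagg
Tie1: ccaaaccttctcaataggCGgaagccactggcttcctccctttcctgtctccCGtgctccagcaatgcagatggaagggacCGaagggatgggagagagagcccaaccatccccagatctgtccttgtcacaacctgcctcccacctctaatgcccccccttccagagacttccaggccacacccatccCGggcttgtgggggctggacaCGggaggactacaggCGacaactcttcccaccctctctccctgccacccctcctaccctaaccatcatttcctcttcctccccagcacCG
Tek: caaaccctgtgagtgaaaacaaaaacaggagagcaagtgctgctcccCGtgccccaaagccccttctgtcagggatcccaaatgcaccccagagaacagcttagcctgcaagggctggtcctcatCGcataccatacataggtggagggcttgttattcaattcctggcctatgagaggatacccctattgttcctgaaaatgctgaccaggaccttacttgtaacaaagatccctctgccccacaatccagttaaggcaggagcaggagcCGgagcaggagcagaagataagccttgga

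The 5 sequences differ in CpG content. Flt1 holds 29 CpGs, Kdr 19, Tie1 7, Eng 6 and Tek 3, beside a median of 13 over the promoter entries. Of the other genes, the Flt4 promoter holds 26 CpGs and lay under regions in both lists, and that of Robo4 holds 2 and lay under none. Among all promoters with 20 to 29 CpGs, 90.9% lay under a region in KO and 87.6% in WT. With 0 to 4 CpGs the shares were 11.2% in KO and 10.6% in WT, and with 5 to 9 they were 41.9% in KO and 39.9% in WT. Eng is thus a CpG-poor promoter that was covered over all 300 bp in both lists. These classes were chosen after the data were seen.

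**Figure D1:**
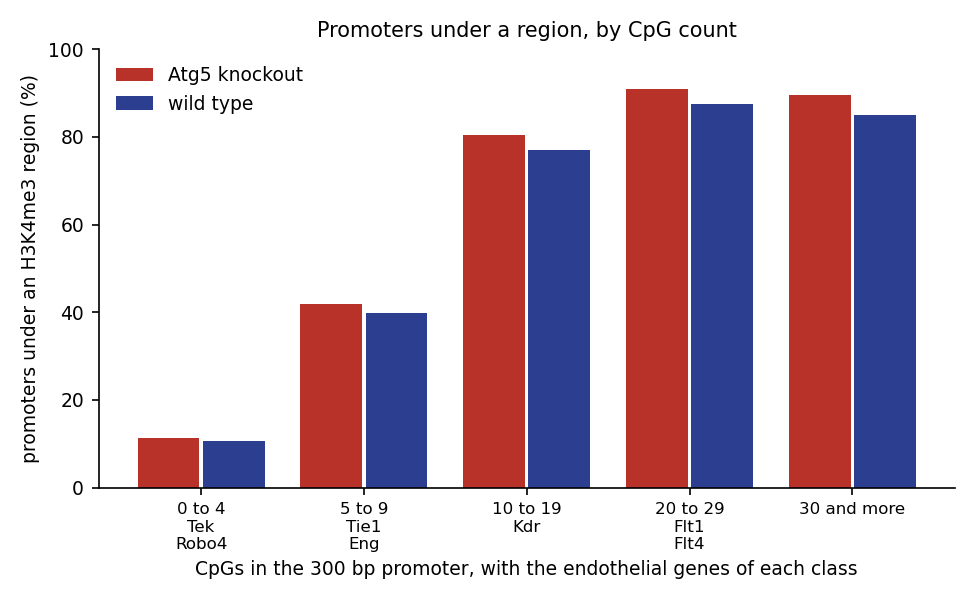
Share of promoter entries of protein-coding genes (y axis, %) that lay under an H3K4me3 region, by number of CpGs in the 300 bp promoter (x axis), in the Atg5 knockout and wild-type lists. The endothelial genes of each class are named under it: Tek and Robo4 fall in the class with 11.2% in KO and 10.6% in WT, Flt1 and Flt4 in that with 90.9% in KO and 87.6% in WT.

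Motifs known from endothelial gene control, and the general promoter motifs GGGCGG and TATAAA, were counted in the 7 promoters on both strands. GGAA, the core of ETS factor sites, occurred in 7 of 7 promoters and in 95.7% of all promoter entries. Tie1 held the most, with 9 copies, and Tek and Flt4 held 2 each. AGGAAG, a longer ETS form that contains GGAA, occurred in 4 of 7 (Tie1, Flt1, Eng and Robo4) and in 34.4% of entries. CCGGAA, which also contains GGAA, occurred only in Kdr among the 7, and in 18.7% of entries. The motif AGATAA, read by zinc finger factors of blood and vessels, occurred in Tek among the 7 and in 9.65% of entries. GGGCGG, the GC box, occurred in Kdr, Flt1 and Flt4, which are 3 of the 4 genes with a region within 1 kb of the 5′ end, and in 46.2% of entries. TATAAA occurred in Flt1 among the 7 and in 12.6% of entries. These matches describe the letters of the window only.

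**Figure D2:**
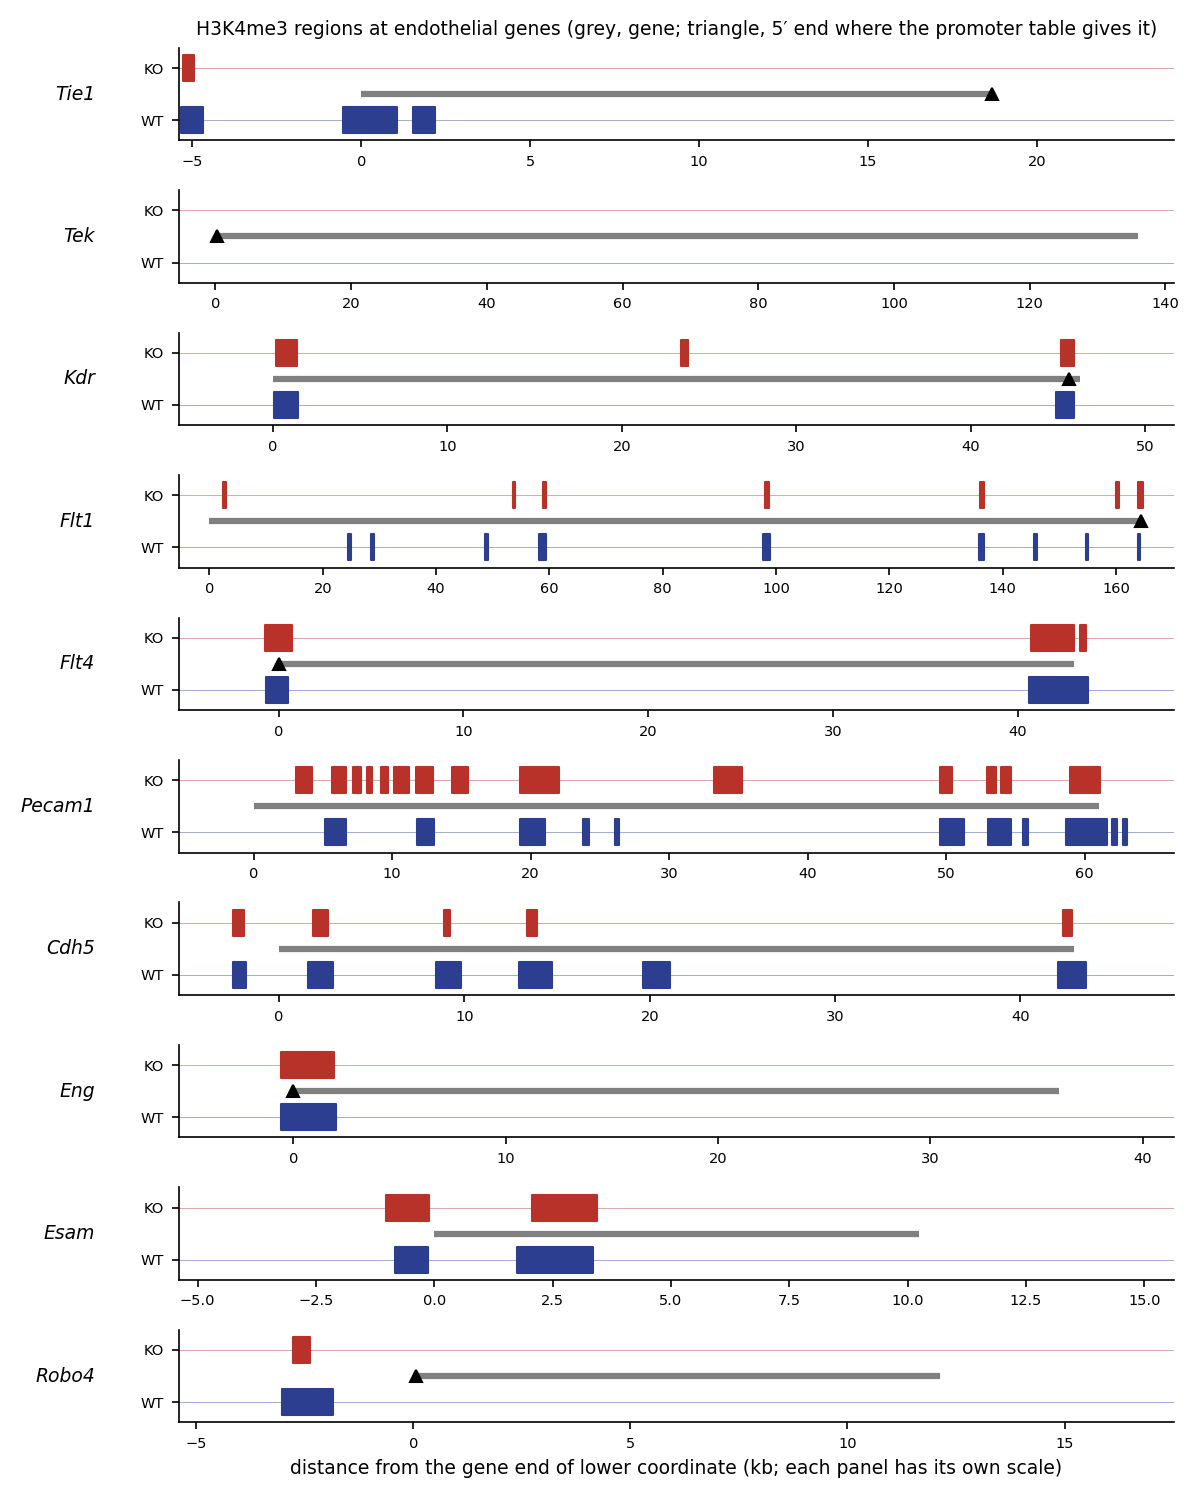
H3K4me3 regions at each of the 10 genes in the Atg5 knockout list (KO, upper row) and the wild-type list (WT, lower row). The x axis is the distance from the gene end of lower coordinate in kb, with its own scale per gene, the grey line is the gene and the triangle is the 5′ end where the promoter table gives it. Cdh5 shows narrower knockout regions at the same places, Pecam1 a row of knockout regions without a wild-type partner, and Tek no region.

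The VEGF receptor genes had regions within 1 kb of their 5′ ends in both lists, and Flt1 differed in the gene body. Kdr (chromosome 5, 75932827 to 75979072, minus strand) encodes VEGFR2, the main signalling receptor for VEGF-A. It had 3 regions and 2368 bp in KO, against 2 regions and 2402 bp in WT, a difference of −34 bp. The region over its 5′ end, which the long noncoding RNA gene Gm32727 overlaps, was 756 bp wide in KO and 1033 bp in WT. The region of higher fold in each list lay near the other end of the gene, with its summit 44864 bp from the 5′ end in KO and 44942 bp in WT, where it was 1192 bp wide in KO and 1369 bp in WT. The authors' fold, the reads at the summit over the local background, was 10.5 at this region in the knockout list and 9.88 in the wild-type list. At the 5′ end it was 7.74 in the knockout list and 4.16 in the wild-type list. Whether that background was taken from the input is not given, and the folds serve only to rank regions within a list.

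Flt1 (chromosome 5, 147561604 to 147726438, minus strand) encodes VEGFR1, which binds VEGF-A tightly and limits its supply to VEGFR2. Its 174835 bp window held 7 regions and 4141 bp in KO, against 9 regions and 6265 bp in WT. The wild-type length was 1.51 times the knockout length, just past the 1.5-fold mark, where Flt4 at 1.07 times was the nearest covered gene short of it on the shorter side. Of the regions, 4 in each list overlapped one in the other list, and 3 in KO and 5 in WT did not. The widest difference at a shared site was at 147620416 to 147621070, 655 bp in KO, against 1378 bp in WT. The region of highest fold in both lists had its summit 66036 bp from the 5′ end in KO and 66012 bp in WT, at the edge of the long noncoding RNA gene Gm35383. It was 717 bp wide in KO and 1201 bp in WT. At the 5′ end the order was the other way round, with a region of 830 bp in KO, against 322 bp in WT. The wild-type region ended 186 bp from the 5′ end and left the printed promoter uncovered, while the knockout region covered all 300 bp of it. Both regions were weak, with folds of 3.59 in the knockout list and 3.38 in the wild-type list, near the bottom of either list.

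Flt4 (chromosome 11, 49609679 to 49652739, plus strand) encodes VEGFR3, the receptor for VEGF-C and VEGF-D on lymphatic endothelium. It had 4104 bp in KO and 4409 bp in WT, a difference of −305 bp. The region over its 5′ end was 1435 bp wide in KO and 1197 bp in WT. Near its 3′ end the wild-type list had 1 region of 3212 bp, where the knockout list had 2 of 2324 and 345 bp. As at Kdr, the region of highest fold in each list was the one near the 3′ end, with 16.9 in the knockout list and 24.1 in the wild-type list. No other annotated gene lay within 10 kb of Flt4.

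In KO the receptors of the angiopoietin system were the least covered of the 10 genes, while in WT Tie1 had more than Kdr, Esam and Robo4. Tek (chromosome 4, 94739086 to 94874976, plus strand) encodes TIE2, the angiopoietin receptor, and had no region in either list over a window of 145891 bp. Regions were absent from both lists at 25.0% of all protein-coding genes. Tie1 (chromosome 4, 118471191 to 118489849, minus strand) had 53 bp in KO and 2583 bp in WT. The 53 bp are the edge of a 322 bp region that lies outside the gene and has a wild-type partner of 664 bp. The other 2 wild-type regions, of 1604 and 656 bp, had no knockout partner. They lay at the 3′ end of the gene, with summits 18479 and 16903 bp downstream of the 5′ end, and the nearest wild-type region was 16460 bp from that end. Of the difference of −2530 bp, these 2 regions make up 2260 bp, and the Tie1 promoter was under no region in either list. With 20000 regions in each list the difference was 0 bp. The folds of the wild-type regions, 5.72 and 6.08, were below the median of 7.81 over that list.

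Regions near 3′ ends were seen at 3 of the 7 genes in each list, namely Kdr, Flt1 and Flt4 in KO and Tie1, Kdr and Flt4 in WT, within 2.5 kb of the end. Among 11079 protein-coding genes over 10 kb with a known strand, 16.1% had such a region in KO and 15.8% in WT. At Flt1 the knockout region reached 73 bp into that window. The gene table gives no exons, so whether these regions lie in exons, introns or untranslated parts is not stated here.

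**Figure D3:**
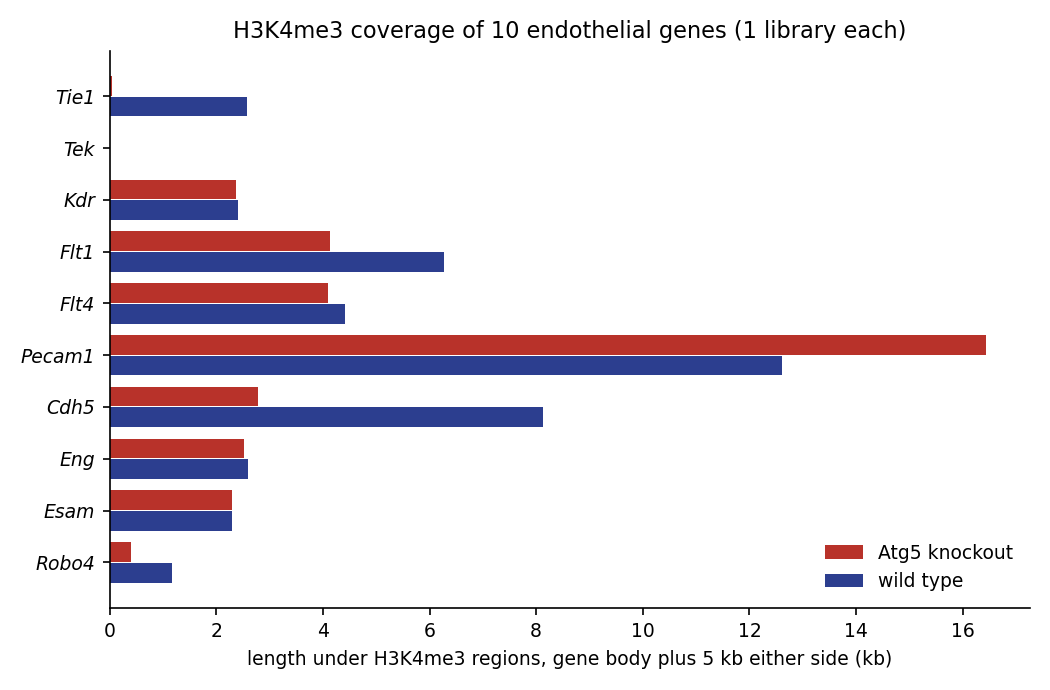
Length under H3K4me3 regions (x axis, kb) in the gene body plus 5 kb either side for the 10 genes (y axis), with the Atg5 knockout bar above the wild-type bar and 1 library per bar. Cdh5 has 2776 bp in KO and 8133 bp in WT, and Pecam1 is the gene with more in KO (16437 bp, against 12614 bp in WT).

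Among the junction genes, Cdh5 and Pecam1 went opposite ways. Cdh5 (chromosome 8, 104101613 to 104144504) encodes VE-cadherin, the adhesion molecule of endothelial adherens junctions and among the more restricted markers of the set. It had 5 regions and 2776 bp in KO, against 6 regions and 8133 bp in WT, a difference of −5357 bp. With 20000 regions in each list the difference was −98 bp. Of the genes with coverage in the lists as deposited, not matched for window length, 0.561% had a lower difference. All 5 knockout regions overlapped a wild-type region and were narrower than it. Their widths were 609, 802, 345, 558 and 462 bp in KO, beside 707, 1313, 1337, 1777 and 1528 bp at the same sites in WT, in order along the chromosome. The wild-type list had 1 region more, of 1471 bp at 104121251 to 104122721, with no knockout partner. The first site lies outside Cdh5 and within the long noncoding RNA gene Gm29682, which overlaps the gene end of lower coordinate. It differed least in width, with 98 bp less in KO, and had the highest fold of the 5 shared sites in each list, 11.6 in the knockout list and 10.9 in the wild-type list.

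Pecam1 (chromosome 11, 106654213 to 106715281) encodes CD31. It was the most covered of the 10 genes, with 14 regions and 16437 bp in KO, against 11 regions and 12614 bp in WT. Regions filled 23.1% of its window in KO and 17.7% in WT, where no other member exceeded 11.3% in KO and 15.4% in WT. Of all genes with coverage, not matched for window length, 95.1% had a lower difference than its 3823 bp. The difference was 297 bp with a minimum −log10 q of 10 and 1110 bp with 20000 regions in each list. The knockout list held 7 regions without a wild-type partner, 6968 bp in all, against 5 wild-type regions without a knockout partner, with 1719 bp. Within 106657280 to 106669678 the knockout list had 8 regions, 6 of them without partner, and the wild-type list had 2. A knockout region of 2039 bp at 106687442 to 106689480 also had none. The region of highest fold in the knockout list, 16.9, was 2825 bp wide and its wild-type partner 1779 bp. At the gene end of higher coordinate the direction turned, with 2202 bp in KO, against 2910 bp in WT for the region that crosses it. Within 2.5 kb of that end the knockout had 2202 bp and the wild type 3589 bp, so this end and the whole window of Pecam1 differed in opposite directions. Covered lengths at myeloid and T cell genes, which are used by other cells that express Pecam1, are given with the gene lists.

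Esam (chromosome 9, 37528089 to 37538319), a junction molecule of endothelium and platelets, had 2 regions in each list at the same sites, with 2291 bp in KO and 2300 bp in WT. One region lay between Esam and Msantd2, 918 bp wide in KO and 703 bp in WT. The other lay inside the gene, 1373 bp wide in KO and 1597 bp in WT. Over their own windows Msantd2 had 4808 bp in KO and 4895 bp in WT, Nrgn 2068 bp in KO and 1216 bp in WT, and Vsig2 351 bp in KO and 0 bp in WT.

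Eng (chromosome 2, 32646595 to 32682669, plus strand) carried the strongest region of the 10 genes in both lists. A single region over its 5′ end was 2516 bp wide in KO and 2591 bp in WT, with folds of 36.8 in the knockout list and 24.5 in the wild-type list. It stood at percentile 90.5 of all folds of the knockout list and 81.4 of the wild-type list, and it was the only member region above the 90th percentile of its list. Fpgs, which overlaps the 3′ end of Eng, had 2017 bp in KO and 2344 bp in WT. Robo4 (chromosome 9, 37401902 to 37414023, plus strand) had 1 region in each list, upstream of the gene, 392 bp wide in KO and 1176 bp in WT. Its edge lay 2455 bp from the 5′ end in KO and 1907 bp in WT, so the gene itself held no region and its difference was 0 bp with no flank, as it was with 20000 regions in each list. The neighbouring Robo3 had 1505 bp in KO and 1655 bp in WT.

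Most regions had a partner in the other list, and most paired regions were narrower in KO. Of the knockout regions, 26 of 37 (70.3%, exact 95% interval 53.0 to 84.1%) overlapped a wild-type region, beside 76.0% of the whole list. Of the wild-type regions, 24 of 37 (64.9%, 47.5 to 79.8%) overlapped a knockout region, beside 73.3% of the whole list. The intervals cover counting error only and treat regions as independent, which regions of 1 gene are not, so no conclusion is drawn from them. Knockout regions without partner were at Pecam1 (7), Flt1 (3) and Kdr (1). Those of the wild type were at Pecam1 (5), Flt1 (5), Tie1 (2) and Cdh5 (1). Regions that overlapped exactly 1 region of the other list, and were its only partner, formed 22 pairs at the 10 genes. The knockout region was the narrower in 17, the wider in 4 and equal in 1 (77.3% narrower). Over 32131 such pairs in the genome 66.2% were narrower in KO. The median difference in width was −310 bp at the 10 genes and −142 bp over all pairs. The 4 wider knockout regions were at the 5′ ends of Flt1 and Flt4, beside Esam and inside Pecam1.

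**Figure D4:**
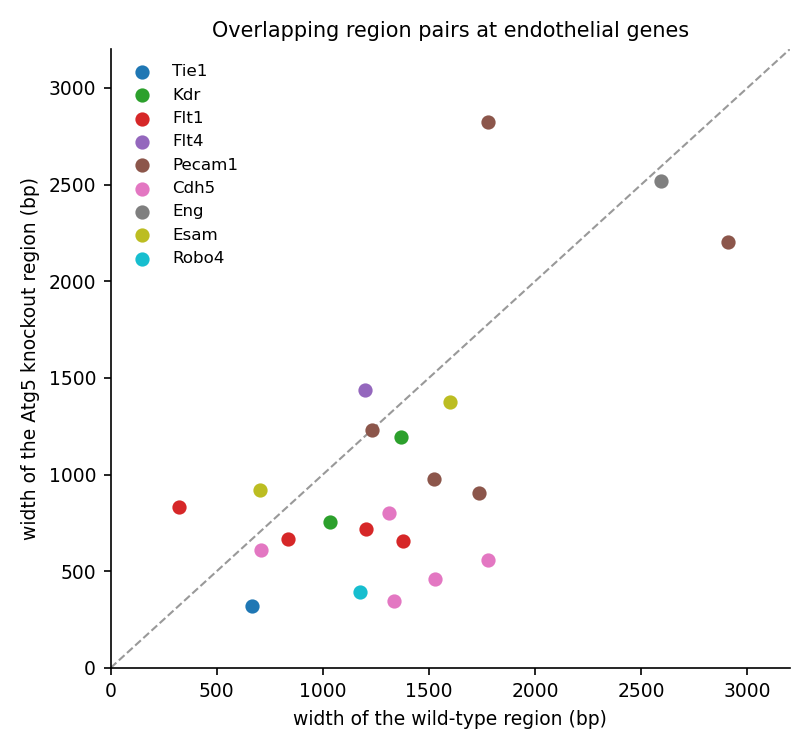
Widths in bp of the 22 overlapping region pairs at the endothelial genes, with the Atg5 knockout region on the y axis and its wild-type partner on the x axis, coloured by gene. The dashed line marks equal width: 17 pairs lie below it, 4 above and 1 on it.

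The member regions were weaker than most regions of either list. Their median fold was 5.68 in KO, against a list median of 8.02, and 6.69 in WT, against a list median of 7.81. Above the list median lay 9 of 37 in KO and 10 of 37 in WT. Their median width was 717 bp in KO and 1197 bp in WT, beside 1130 and 1103 bp over the knockout and wild-type lists. Regions found in 1 list only had a median width of 568 bp in KO and 394 bp in WT. Inside the genes lay 29 of 37 in KO and 25 of 37 in WT. Gene bodies make up most of the summed windows, which add only 5 kb either side. A majority inside the genes thus follows from the rule and is not read as a result.

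Genes that act with the 10 were examined from lists. Over all protein-coding genes with coverage, 53.2% were shorter in KO and 46.7% longer. Of 12 ligand genes, 11 had a region in KO and 9 in WT, beside 72.3% in KO and 72.8% in WT of all protein-coding genes. In KO 5 ligand genes were longer and 6 shorter, with a median difference of −81.5 bp. Vegfa had 4800 bp in KO and 7123 bp in WT. Vegfd, a ligand of VEGFR3, had 3869 bp in KO and 6111 bp in WT, and Slit3 had 4226 bp in KO and 5480 bp in WT. Angpt1, the activating ligand of TIE2, had 3599 bp in KO and 2658 bp in WT. Angpt4 and Slit2 had 859 and 812 bp in KO and 0 bp in WT.

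Of 36 further endothelial surface, junction and signalling genes, 22 were shorter in KO, 10 were longer and 4 were equal, with a median difference of −298 bp. Of the 30 with at least 500 bp in 1 list, 6 were shorter by at least 1.5-fold and 3 longer. Over all protein-coding genes with that length, 11.2% were shorter by that fold and 14.2% longer. Ptprb, the vascular phosphatase that acts on TIE2 and VE-cadherin and is named here after its values were seen, had 1321 bp in KO and 4324 bp in WT. Nrp2, a VEGF-C co-receptor, had 12795 bp in KO and 18587 bp in WT. S1pr1, the sphingosine phosphate receptor that T cells also use to leave lymph nodes, had 8952 bp in KO and 2690 bp in WT. Notch1 had 15816 bp in KO and 11349 bp in WT, and Nrp1 had 7763 bp in KO and 3322 bp in WT. Both are also used by T cells. Whether T cell content bears on the values of S1pr1, Notch1 and Nrp1 was not tested. Lyve1, Gja5 and Gpihbp1 had 0 bp in KO, against 1072, 718 and 301 bp in WT, while Cd34 had 296 bp in KO and 0 bp in WT. Aplnr, Cldn5, Emcn and Clec14a were at 0 bp in both lists.

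As a list, the 14 endothelial transcription factor genes went the other way from the 10 receptors and junction genes. In the knockout 10 were longer and 4 shorter, with a median difference of 1340 bp. Of the 13 with at least 500 bp in 1 list, 6 differed by at least 1.5-fold, all longer. Over all protein-coding genes with that length, 14.2% were longer by that fold and 11.2% shorter. Ets1 had 59914 bp in KO and 26525 bp in WT, and Fli1 had 32252 bp in KO and 4869 bp in WT. Both encode ETS factors that lymphocytes also use. Erg, an ETS factor that maintains endothelial identity, had 4364 bp in KO and 678 bp in WT. Tal1, a factor of blood and vessel progenitors, had 5983 bp in KO and 4150 bp in WT. Sox17, a factor of arterial endothelium, had 1481 bp in KO and 0 bp in WT. The 4 shorter genes were Sox7, Sox18, Klf4 and Prox1. Sox7 had 3997 bp in KO and 5115 bp in WT, and Sox18 1179 bp in KO and 1585 bp in WT. Klf4 had 4917 bp in KO and 5254 bp in WT, and Prox1 418 bp in KO and 460 bp in WT. In the same libraries the 12 T cell genes summed to 174314 bp in KO and 22304 bp in WT. A link between these sums and the transcription factor genes was not tested.

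Lists of other cells that can accompany vessels in a tumour were measured in the same windows. Over all protein-coding genes with coverage, 53.2% were shorter in KO and 46.7% longer. Of 10 mural cell genes, 7 were shorter in KO and 2 longer, with summed lengths of 21072 bp in KO and 40824 bp in WT and single genes at 0 to 5940 bp in KO and 0 to 15855 bp in WT. Tagln was at 0 bp in both lists and Abcc9 in KO. Of 8 fibroblast genes, 6 were shorter and 1 longer, with sums of 15437 bp in KO and 21329 bp in WT. Lum was at 0 bp in both lists and Fap in WT. Of 10 myeloid genes, 8 were shorter and 2 longer, with sums of 37612 bp in KO and 43804 bp in WT and none at 0 bp. Of 8 platelet and megakaryocyte genes, 5 were shorter and 2 longer, with sums of 15607 bp in KO and 17055 bp in WT, and Gp9 was at 0 bp in both. The windows of Pf4 and Ppbp overlap, so any bp covered in the stretch they share count for both. Of 8 epithelial and tumour genes, 2 were shorter and 5 longer, with sums of 24019 bp in KO and 19629 bp in WT, and Krt19 was at 0 bp in both. The ratio of the sums, knockout over wild type, was 0.516 for mural, 0.724 for fibroblast, 0.826 for the 10 endothelial and 0.859 for myeloid genes. It was 0.915 for platelet and megakaryocyte genes and 1.22 for epithelial genes. The other endothelial lists differed from the 10 genes and from each other. Their ratios were 0.910 for ligand genes, 0.933 for the 36 further surface, junction and signalling genes and 2.17 for transcription factor genes. For housekeeping genes the ratio was 1.09. Much of the mural difference lay at 1 gene, Cspg4, with 4112 bp in KO and 15855 bp in WT. The part of these cell types in the endothelial values was not tested.

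**Figure D5:**
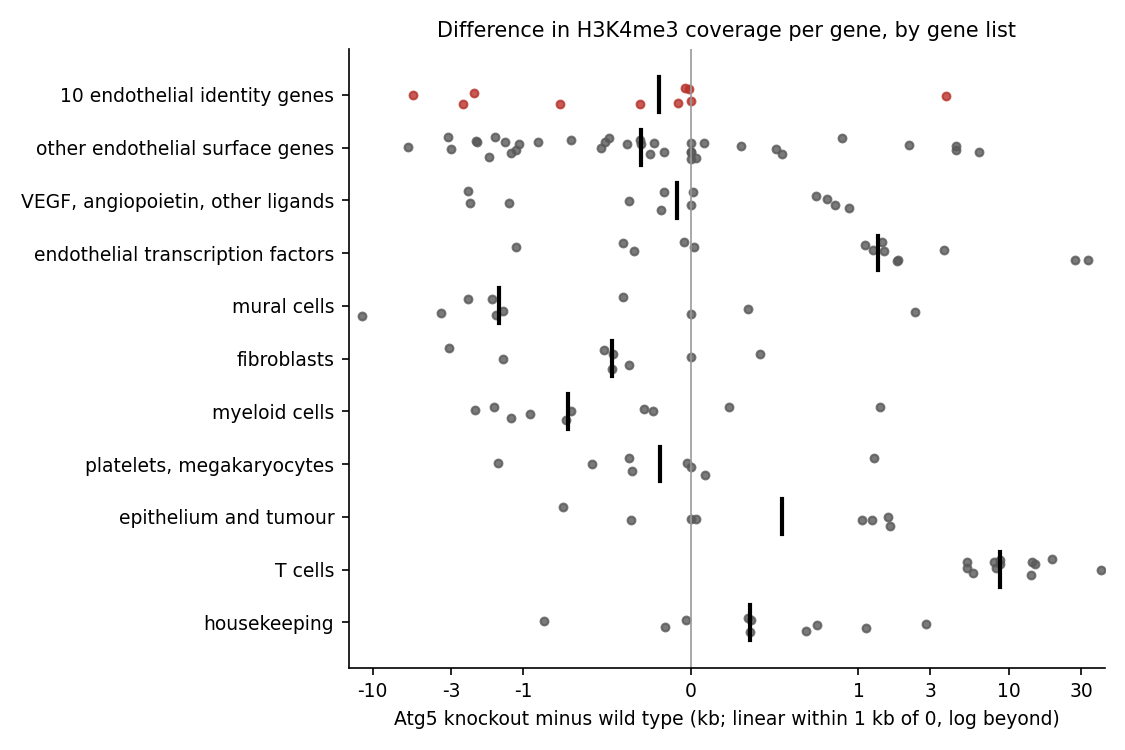
Difference in covered length per gene, Atg5 knockout minus wild type (x axis, kb, linear within 1 kb of 0 and logarithmic beyond), for the 10 endothelial genes and the other gene lists (y axis). Each point is 1 gene and each black bar the median of its list, which is −190 bp for the 10 endothelial genes, 1340 bp for the endothelial transcription factors and 8724 bp for the T cell genes.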

How the data were processed

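Per the submitters' processing notes, the authors called regions with MACS2 on GRCm38 (mm10). The version, settings, aligner, filters on reads and use of input were not given in the sources used here. The names in each deposited list show 1 library. The deposited fold values are ratios of summit reads to local background. The −log10 p and −log10 q, also deposited by the authors, belong to the summit, and the deposited score, a rounded −log10 q multiplied by 10, was not used. These are the authors' values, and they were used only to rank, describe or filter regions within a list. The lowest −log10 q was 2.02 in the knockout list and 2.00 in the wild-type list. Library depth is unknown, and covered lengths depend on depth and on the calling threshold.

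Restricting the lists to autosomes, X and Y left out 64 knockout and 65 wild-type regions. Covered length counts the bp under regions in the RefSeq gene body plus 5 kb either side. Regions were called shared from 1 bp of overlap. A 1.5-fold call required 500 bp in 1 list. The gene table gives no strand, so 5′ ends came from the RefSeq promoter table, which has 17491 of 21883 protein-coding genes and may hold 1 of several starts. The members and lists were chosen with earlier results of these data known. Text names all 10 genes, the protein-coding neighbours of their windows, and from each acting list the 4 genes with the largest difference and those with regions in 1 list only. Others are named after their values were seen, among them the genes at 0 bp. Comparisons of pair widths, CpG classes and gene ends were added after the data were seen. Alternatives changed the flank, the −log10 q threshold, the list length and the overlap rule. With 1 library per genotype there was no test. Intervals are Clopper-Pearson. SciPy 1.17.1, pandas 2.3.3 and NumPy 2.4.6 ran under Python 3.11.15, with Matplotlib 3.10.9 for plots, and the interval arithmetic was tested on simulated data.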

Additional observations from a re-analysis of the deposited data

How the results depend on the processing

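The median difference over the 10 genes stayed at or below 0 bp in the settings tried: −62 bp with no flank, −169.5 bp with a flank of 10 kb, −379.5 bp with a minimum −log10 q of 5, −264.5 bp with a minimum of 10, and 0 bp both with 20000 regions in each list and within 2.5 kb of the 5′ end of the 7 genes with a known one. With 20000 regions in each list, 5 genes had a region in KO and 5 in WT, 4 were shorter in KO, 1 of them by 1.5-fold, and 2 of the 7 genes had a region at the 5′ end in KO and 2 in WT. This setting keeps fewer regions. Within 2.5 kb of the 5′ end, 3 of 7 genes were shorter in KO, 1 of them by 1.5-fold, and Flt1 reversed, with 508 bp more in KO, as did Flt4 with 238 bp more. Other genes that were shorter in KO became longer there: Kdr by 579 bp with a minimum −log10 q of 10 and by 1192 bp with 20000 regions, Eng by 705 bp and Esam by 342 bp with a flank of 10 kb, and Flt4 by 49 bp with no flank. The count of shorter genes was 6 with either flank, 8 with a minimum of 5 and 7 with a minimum of 10. The cause was not tested. With the minimum of 10, 46.2% of the wild-type regions overlapped a knockout region, and 2 genes had a wild-type region at the 5′ end. Cdh5 was shorter in KO in all 6 alternatives that give it a value, with differences of −7524 to −98 bp, and Pecam1 was longer in all 6, with 297 to 4943 bp. Tie1 was shorter in 5 of 7 and equal in 2, and Robo4 likewise. No paired analysis was possible because each genotype has 1 library. Library depth is unknown, and a gene with no region may carry the mark below the calling threshold.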

Other observations

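Among the mural cell genes, Cspg4, which encodes the pericyte proteoglycan NG2, had 4112 bp in KO and 15855 bp in WT. Notch3, a receptor of vascular smooth muscle, had 5940 bp in KO and 9439 bp in WT, and Rgs5 had 455 bp in KO and 2769 bp in WT. Kcnj8, a potassium channel gene of pericytes, went the other way, with 2745 bp in KO and 365 bp in WT. Among the fibroblast genes, Col3a1 had 3936 bp in KO and 7044 bp in WT, and Col1a1 had 2476 bp in KO and 3849 bp in WT. These genes were named by the size of their difference after the values were seen, and no explanation was tested.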
